A study of Mus musculus with 12 samples.

Results

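The expression of 9 genes that mark cholangiocytes by a surface or secreted product was examined in whole-liver RNA of mice with active YAP or with MYC overexpression. The genes were Epcam, Spp1, Cd24a, Prom1, Cldn4, Cldn7, Muc1, Tspan8 and Cftr. They were taken by gene symbol, as known markers, in a list chosen with earlier results of these data known. All 9 were found among the 48576 genes listed for each library. RNA sequencing gave 12 libraries in 5 groups.

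In the YAP model, all mice had the genotype Col-TRE-YAPS127A; Rosa26-LSL-rtTA. YAPS127A is a form of the Hippo pathway effector YAP that cannot be phosphorylated at an inhibitory site, and it is transcribed from the doxycycline-responsive TRE promoter when rtTA is present. Cre from AAV-TBG-Cre, a virus whose TBG promoter is active in hepatocytes, was delivered at 8 to 10 weeks of age and switched on rtTA. Doxycycline then induced YAPS127A for 2 weeks (n = 2) or 4 weeks (n = 3), and the YAP controls were mice of the same genotype without induction (n = 2). The sources used here do not say whether the controls received the virus, nor the age at collection. In the MYC model, LAP-tTA, a liver driver, activated TRE-MYC after doxycycline was removed from the mothers' drinking water near embryonic day 8, and the offspring gave livers at an age of 4 weeks (n = 3). The controls of this model carried LAP-tTA without TRE-MYC and had the same doxycycline schedule (n = 2). The 2 models therefore differ in driver, age and duration. The labels call the cells hepatocytes, but the extraction was of total liver RNA, so each value sums over all cells of the liver. The labels do not state from how many animals or litters the replicates came, so a p-value measures the spread between these libraries.

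Cholangiocytes are the epithelial cells that line the bile ducts, and they modify bile by secreting ions and fluid through a polarised, tightly sealed layer. Epcam, claudins and mucins belong to that epithelial layer, Cftr is its apical chloride channel, and Spp1 (osteopontin) is a protein it secretes. Prom1, Cd24a and Tspan8 are surface proteins of ductal and progenitor cells that several other cell types also carry. YAP is known to be more active in biliary cells than in hepatocytes of the adult liver, and hepatocytes forced to hold active YAP are known to take on ductal features.

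Libraries held 12511170 to 17690798 counts. Levels are given in CPM, read counts relative to library size, after scaling with the trimmed mean of M-values (TMM), which holds the typical gene unchanged. With scaling to total counts instead, the median log2 fold change of all tested genes shifted by 0.53 at 2 weeks of YAP, 0.73 at 4 weeks and 0.41 with MYC, and the share of called genes that were higher went from 54.4 to 84.2%, from 53.6 to 89.8% and from 53.3 to 81.5%. The test was not passed for the mouse symbols of the induced genes: Yap1 was at 83.8 ± 3.76 CPM in YAP controls (SD, n = 2), 83.8 ± 5.14 after 2 weeks (n = 2) and 73.4 ± 10.8 after 4 weeks (n = 3). Myc went from 11.1 ± 6.20 CPM in the controls of its model (n = 2) to 25.6 ± 5.06 (n = 3; log2 fold change 1.21 ± 0.67 SE, adjusted p = 0.242). The species of the transgenes is not given in the sources used here. By Xist and Y-linked genes, the YAP controls, 2-week replicate 1 and all MYC-model libraries had a male pattern, while 2-week replicate 2 and all 4-week libraries had a female pattern. At 4 weeks, YAP induction and sex pattern cannot be told apart. The 9 hepatocyte markers found, among them Alb and Apoa1, summed to between 33956 and 119226 CPM across the 12 libraries, so hepatocyte RNA was present in every one. The duct genes Krt7, Krt19 and Sox9 had counts in every group, and Cldn4 was the 1 member without counts in whole groups.

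The members lie on 6 chromosomes of GRCm38 in the GENCODE vM21 annotation. Epcam (ENSMUSG00000045394.9) is at chr17:87635979-87651129 on the plus strand, and Spp1 (ENSMUSG00000029304.14) at chr5:104435118-104441050 on the plus strand. Prom1 (ENSMUSG00000029086.15) is at chr5:43993620-44102032 and Cldn4 (ENSMUSG00000047501.3) at chr5:134945119-134946934, both on the minus strand. Cd24a (ENSMUSG00000047139.9) is at chr10:43578284-43584265 and Tspan8 (ENSMUSG00000034127.15) at chr10:115816832-115849893, both on the plus strand. Cldn7 (ENSMUSG00000018569.12) is at chr11:69964779-69967885, Muc1 (ENSMUSG00000042784.9) at chr3:89229057-89233381 and Cftr (ENSMUSG00000041301.15) at chr6:18170687-18322768, all on the plus strand. Gene models overlap Spp1 (Gm42793), Prom1 (Gm42716 and the antisense Gm16401), Tspan8 (the antisense 4930422I22Rik) and Cftr (the antisense Gm15592 and the pseudogene Gm15595). The strand setting of the counting is not given in the sources used here, so reads of such partners cannot be told apart. Where counted, the partners held 271 counts or fewer over all libraries, against 126378 for Spp1, 1980 for Prom1 and 358 for Cftr.

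The upstream sequences of 5 members are shown. Spp1, Epcam and Cftr are 3 of the 4 members that rose at 4 weeks of YAP. Prom1 also rose, and its 2 windows, which held no match, are not printed. The sequences of Cldn7 and Muc1 are shown because they hold the core letters of a TEAD motif, TEAD being the DNA-binding partner of YAP. Each is the 250 bases before the first RefSeq start on GRCm38.p6, on the plus strand, 5′ to 3′, with motif letters in capitals.
Spp1 (chr5:104434861-104435110): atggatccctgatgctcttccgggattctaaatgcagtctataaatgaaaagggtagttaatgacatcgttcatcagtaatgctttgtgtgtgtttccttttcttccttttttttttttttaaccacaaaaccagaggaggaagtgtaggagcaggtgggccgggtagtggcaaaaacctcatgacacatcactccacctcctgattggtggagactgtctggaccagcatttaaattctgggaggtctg
Epcam (chr17:87635729-87635978): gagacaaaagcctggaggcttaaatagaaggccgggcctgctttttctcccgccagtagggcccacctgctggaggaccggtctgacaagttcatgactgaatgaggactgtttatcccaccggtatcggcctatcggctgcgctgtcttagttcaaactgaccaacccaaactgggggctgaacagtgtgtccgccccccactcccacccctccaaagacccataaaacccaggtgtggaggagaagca
Cftr (chr6:18170437-18170686): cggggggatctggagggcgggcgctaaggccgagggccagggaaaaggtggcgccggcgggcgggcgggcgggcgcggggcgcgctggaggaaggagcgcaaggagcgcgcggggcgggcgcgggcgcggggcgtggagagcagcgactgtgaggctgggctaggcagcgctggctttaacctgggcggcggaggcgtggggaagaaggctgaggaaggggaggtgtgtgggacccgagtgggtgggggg
Cldn7 (chr11:69964529-69964778): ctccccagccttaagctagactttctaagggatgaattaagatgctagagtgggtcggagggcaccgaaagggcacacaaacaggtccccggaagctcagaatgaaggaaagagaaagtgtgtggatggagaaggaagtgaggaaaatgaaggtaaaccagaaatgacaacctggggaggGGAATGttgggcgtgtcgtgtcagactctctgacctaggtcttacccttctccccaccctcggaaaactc
Muc1 (chr3:89228806-89229055): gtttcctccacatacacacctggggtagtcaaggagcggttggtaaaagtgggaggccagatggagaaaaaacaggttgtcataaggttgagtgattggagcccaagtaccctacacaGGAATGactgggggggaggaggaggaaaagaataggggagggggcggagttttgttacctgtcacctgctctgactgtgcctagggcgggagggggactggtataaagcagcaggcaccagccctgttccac
In Cldn7 and Muc1 the capitals mark the TEAD letters GGAATG, 70 and 132 bases before the start. The motifs searched on both strands were GGAATG and the MYC E-box CACGTG. Each window with a match held 1 match, so no matches overlapped. Of 11 windows from 8 matched members, 2 held a match, and the windows of Epcam, Spp1, Prom1, Cldn4, Tspan8 and Cftr held none. Over all 32851 windows of this length, 12.6% held GGAATG and 6.02% CACGTG. A match describes letters, and binding was not measured.

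Against the YAP controls, 2 of the 9 genes rose at 2 weeks (Spp1 and Prom1) and 4 rose at 4 weeks (Epcam, Spp1, Prom1 and Cftr), and none fell. A gene was called at an adjusted p under 0.05 with edgeR's quasi-likelihood test. Of all 17964 tested genes, 27.8% were called at 2 weeks, 15.1% as higher and 12.7% as lower, and 33.8% at 4 weeks, 18.1% as higher and 15.7% as lower. The 2-week count lies near that background. Among the 4-week calls, that of Cftr is limited because the gene entered the test mainly through induced libraries. Both times share the same 2 controls. With MYC only Cd24a of the 9 rose, where 18.3% of genes were called, 9.76% as higher and 8.56% as lower. In bulk liver, a change in the number of cells of a type and a change in RNA per cell cannot be told apart.

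**Figure D1:**
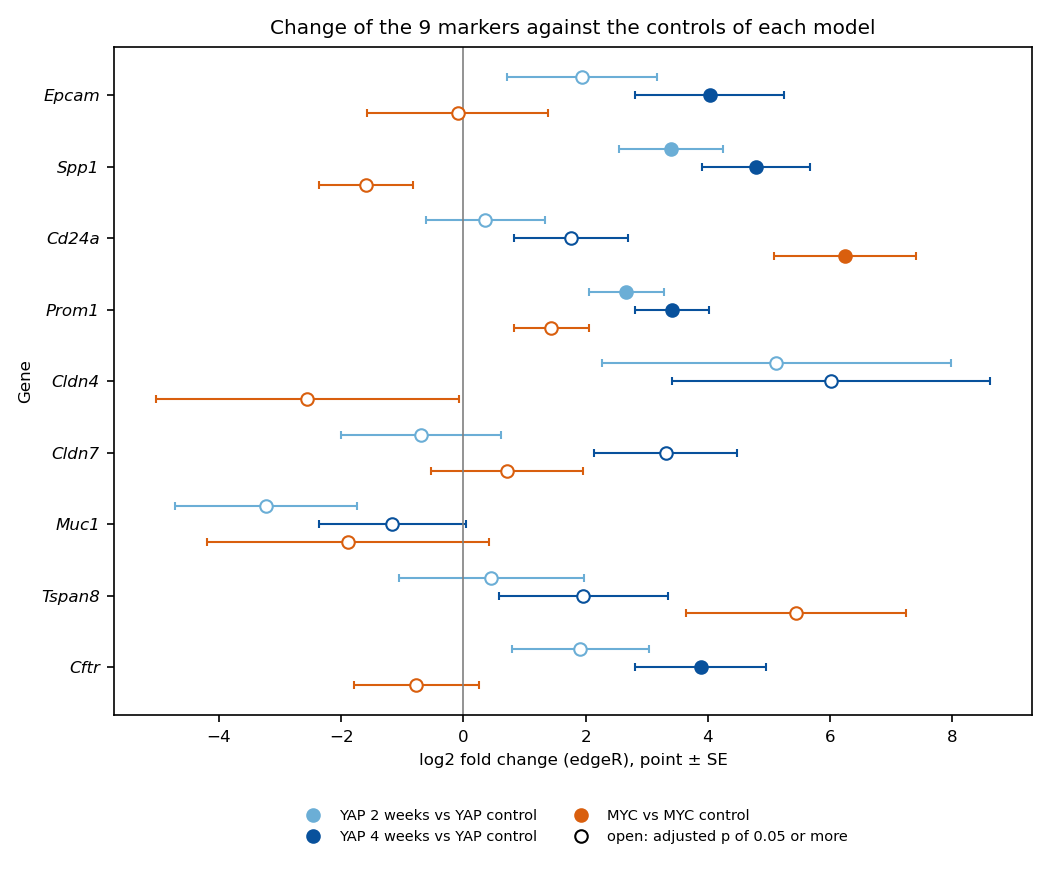
log2 fold change of each marker (x axis, edgeR, point ± SE) against the controls of its model, at 2 and 4 weeks of YAP (n = 2 and 3 against 2) and with MYC (3 against 2). Filled points have an adjusted p under 0.05: Spp1 and Prom1 at both YAP times, Epcam and Cftr at 4 weeks, and Cd24a with MYC.

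The secreted member Spp1, osteopontin, is a phosphoprotein that binds integrins and Cd44. It stood at 64.7 and 73.9 CPM in the YAP controls, 466 and 996 at 2 weeks, and 305, 2737 and 2724 at 4 weeks. In the MYC model it stood at 5.57 and 7.33 CPM in the controls and at 2.62, 1.61 and 2.15 with MYC. Every induced YAP library was above both YAP controls, 4-week replicate 1 was the lowest of the induced libraries, and every MYC library was below both of its controls. The group means rose 10.5-fold at 2 weeks (log2 fold change 3.40 ± 0.85 SE, adjusted p = 0.0157) and 27.7-fold at 4 weeks (4.79 ± 0.88, adjusted p = 0.00318). Between 2 and 4 weeks the libraries overlapped (1.39 ± 0.74, adjusted p = 0.754). Without 4-week replicate 1 that difference passed (1.90, adjusted p = 0.0132). With MYC the mean was 3.03-fold below the controls and did not pass (log2 fold change -1.59 ± 0.77, adjusted p = 0.182), although it passed when only MYC-model libraries entered the fit (adjusted p = 0.0243). The order of group means was 4-week YAP, 2-week YAP, YAP control, MYC control and MYC, and only the first pair in that order overlapped.

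The 2-week call of Spp1 rested on few libraries. It was lost without a filter on low counts (adjusted p = 0.0608). It was also lost without YAP control replicate 1 (adjusted p = 0.099), without control replicate 2 (0.088) and without 2-week replicate 2 (log2 fold change 2.75, adjusted p = 0.0865), which left only male-pattern libraries in the comparison and assumed that the lone 2-week library varied like the other groups. The 4-week call held without each of the 5 libraries in turn (log2 fold change 4.45 to 5.30).

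Spp1 is also made by macrophages and stellate cells, so their markers were summed. All 10 macrophage genes tested, among them Cd68, Trem2 and Gpnmb, rose at 2 weeks, 8 of 10 at 4 weeks and 6 of 10 with MYC, and none fell. Their summed level was 259 to 280 CPM in YAP controls, 1231 to 1346 at 2 weeks and 621 to 914 at 4 weeks, and 147 to 172 in MYC controls and 381 to 533 with MYC. At 4 weeks the macrophage sum was highest in replicate 1, where Spp1 was lowest, and with MYC it was above the controls while Spp1 was below them. The 8 stellate genes summed to 366 and 468 CPM in YAP controls, to 351 and 515 at 2 weeks, and to 169, 1044 and 479 at 4 weeks, with the lowest value in replicate 1. That sum joined genes that went opposite ways, as Lrat had a mean of 37.4 CPM in YAP controls, 10.6 at 2 weeks and 12 at 4 weeks, and Col1a1 19.5, 103 and 140 CPM. No macrophage or stellate gene listed was at 0 in the YAP groups, and Trem2 was at 0 in MYC controls. The part of these cells in the Spp1 result was not tested.

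**Figure D2:**
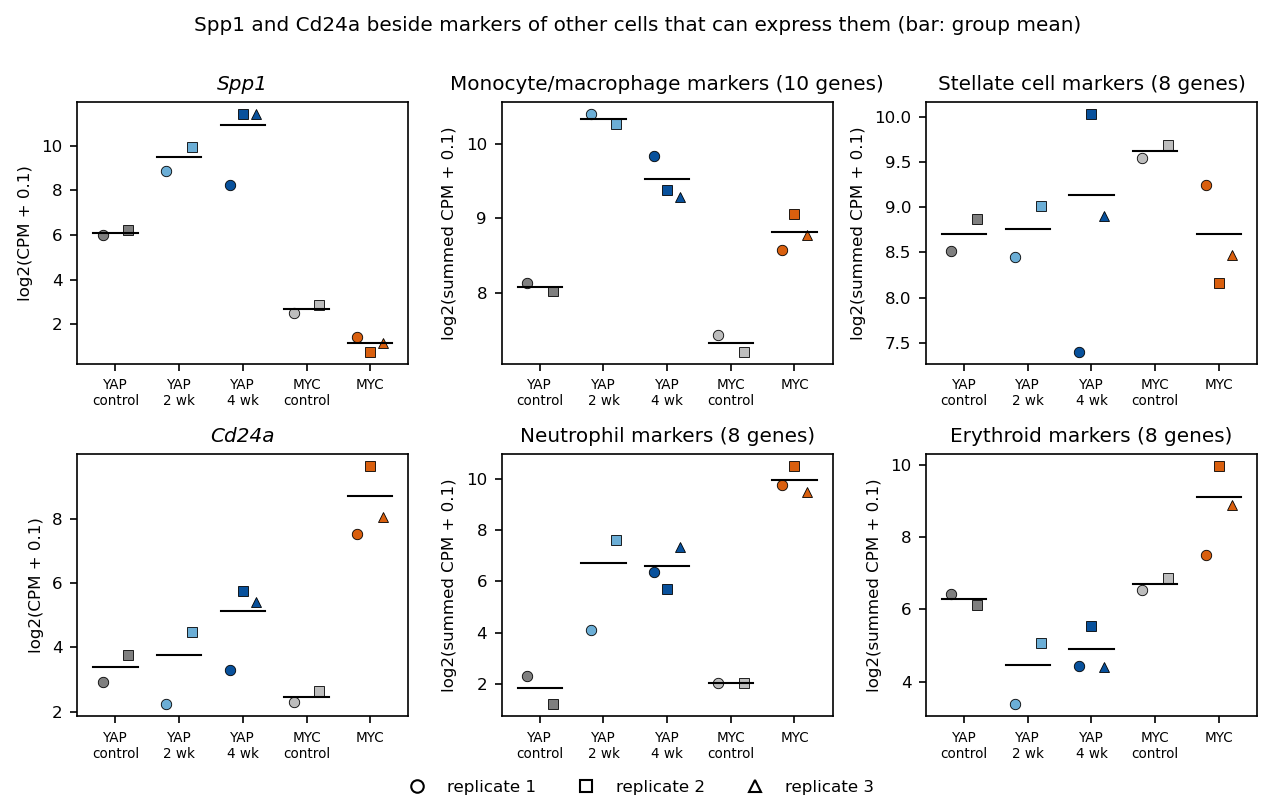
Level of Spp1 and Cd24a (log2 of CPM + 0.1) and the summed level of marker genes of macrophages, stellate cells, neutrophils and erythroid cells, per library, with a bar at the group mean and a symbol for each replicate number. Spp1 was lowest at 4 weeks in replicate 1 (305 CPM), where the macrophage sum was highest (914 CPM), and Cd24a and the neutrophil and erythroid sums were all highest in MYC replicate 2.

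Epcam encodes an epithelial adhesion protein present on cholangiocytes and absent from most adult hepatocytes. It was at 1.55 and 1.06 CPM in the YAP controls, 5.17 and 4.90 at 2 weeks, and 0.953, 31.9 and 31.6 at 4 weeks. In MYC controls it was at 0.530 and 0.390 CPM, and with MYC at 0.357, 0.140 and 0.754. Both 2-week libraries were above the controls, whereas at 4 weeks 2 libraries were far above them and replicate 1 was below both. The mean was 16.5-fold higher at 4 weeks (log2 fold change 4.03 ± 1.22 SE, adjusted p = 0.0304) and 3.86-fold higher at 2 weeks, where the test did not pass (1.94 ± 1.22, adjusted p = 0.268). The MYC groups overlapped, at low counts (-0.10 ± 1.48, adjusted p = 0.982), and the direction turned with scaling to total counts (0.31).

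The 4-week call of Epcam was lost in every fit that left out a library other than replicate 1. Its adjusted p was 0.136 and 0.164 without control replicates 1 and 2, and 0.0596 and 0.0654 without 4-week replicates 2 and 3. It was also lost without a filter on low counts (0.0996) and with only YAP libraries in the fit (0.0618). Without 4-week replicate 1 the log2 fold change was 4.59 (adjusted p = 6.45e-05), and the difference from 2 weeks then passed (2.65, adjusted p = 0.00618).

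Of the tight junction members, Cldn7 encodes a claudin that forms a complex with Epcam. It was at 1.35 and 0.424 CPM in the YAP controls, 0.496 and 0.598 at 2 weeks, and 0.635, 15.6 and 10.7 at 4 weeks. It was near the control level at 2 weeks and in 4-week replicate 1, and high in the other 4-week libraries. Its 4-week mean was 10.1-fold higher with an adjusted p just above the threshold (log2 fold change 3.31 ± 1.17 SE, adjusted p = 0.0506). The gene passed with scaling to total counts (adjusted p = 0.0213), with DESeq2 (0.00569) and without 4-week replicate 1 (3.86, 0.00208). At 2 weeks the libraries overlapped the controls (-0.70 ± 1.31, adjusted p = 0.729). With MYC it was at 0.238, 0.631 and 1.39 CPM against 0.619 and 0.312 in the controls, which overlapped (0.71 ± 1.24, adjusted p = 0.743).

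Cldn4, a claudin of bile duct and gut epithelium, was near the detection limit. It had no counts in both YAP controls, 4 and 5 counts at 2 weeks (0.283 and 0.299 CPM), and 0, 12 and 17 counts at 4 weeks (0, 0.688 and 0.945 CPM). The only count in the MYC model was 1, in MYC control replicate 1. Against a floor of 3 counts per library, the 4-week mean was at least 1.79-fold higher than in the controls, and the test did not pass (adjusted p = 0.108). It passed without 4-week replicate 1 (adjusted p = 0.0293). Cldn4 entered the test only through 4-week libraries, which limits what its result can show. A change at 2 weeks or with MYC was not detectable at this depth.

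Muc1, a membrane mucin of the apical surface, was the 1 member whose mean was highest in the uninduced livers of the YAP model. It was at 9.85 and 22.7 CPM in the YAP controls, 2.27 and 1.2 at 2 weeks, and 0.381, 20.1 and 1.28 at 4 weeks. Both 2-week libraries and 2 of the 4-week libraries were below the controls, while 4-week replicate 2 lay between them. The mean was 9.40-fold lower at 2 weeks, and the test did not pass (log2 fold change -3.23 ± 1.49 SE, adjusted p = 0.135), nor did it at 4 weeks (-1.16 ± 1.2, adjusted p = 0.487). Without 4-week replicate 2 the 4-week difference passed as lower (-4.26, adjusted p = 0.00399). In the MYC model Muc1 was at 0.530 and 0.156 CPM in the controls and at 0.0596, 0.210 and 0 with MYC, with at most 6 counts in a library (-1.89 ± 2.31, adjusted p = 0.619). A list of 10 genes of gallbladder and gut epithelium summed to 46.9 and 44.1 CPM in the YAP controls, 14.8 and 17.1 at 2 weeks, and 19.9, 32.5 and 28.0 at 4 weeks, where replicate 2 was also the highest. That sum joined genes that went opposite ways. Fabp2 and Tff3 had its highest means in YAP controls, 27.7 and 12.6 CPM, and were at 3.69 and 0.267 at 2 weeks and 5.75 and 0.637 at 4 weeks. Muc6 went from 3.42 to 11.5 and 18.4 CPM. Of the 10 genes, Tff1, Cdx1, Cdx2 and Gkn3 had no counts in the YAP controls, and the part of such cells in the Muc1 values was not tested.

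Among the surface proteins of progenitor cells, Prom1 encodes prominin 1, a pentaspan protein of membrane protrusions. It was at 2.80 and 1.80 CPM in the YAP controls, 6.73 and 22.6 at 2 weeks, and 12.1, 30.5 and 31.3 at 4 weeks. All 5 induced libraries were above both controls. The mean rose 6.37-fold at 2 weeks (log2 fold change 2.66 ± 0.62 SE, adjusted p = 0.00955) and 10.7-fold at 4 weeks (3.41 ± 0.60, adjusted p = 0.00202). The 4-week call held without each of the 5 libraries in turn (3.13 to 3.77), and the 2-week call was lost without control replicate 2 (adjusted p = 0.0803) and without 2-week replicate 2 (1.54, adjusted p = 0.0914). In the MYC model Prom1 was at 1.15 and 1.17 CPM in the controls and 2.74, 4.07 and 2.67 with MYC. Those groups did not overlap, but the test did not pass (1.43 ± 0.61, adjusted p = 0.13).

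Cd24a encodes a small glycosylphosphatidylinositol-anchored protein found on biliary and progenitor cells and on several blood cells. It was at 4.77 and 6.08 CPM in the MYC controls and at 183, 791 and 267 with MYC. Every MYC library was far above both controls, and replicate 2 was the highest. The mean rose 76.2-fold (log2 fold change 6.25 ± 1.16 SE, adjusted p = 0.00778). The call was lost without MYC control replicate 1 (6.08, adjusted p = 0.0929) or replicate 2 (6.43, adjusted p = 0.0803), while the size of the difference stayed. In the YAP model Cd24a was at 7.44 and 13.5 CPM in the controls, 4.6 and 22.1 at 2 weeks, and 9.72, 53.6 and 42.3 at 4 weeks. Those groups overlapped, at 2 weeks (0.36 ± 0.98, adjusted p = 0.819) and at 4 weeks (1.76 ± 0.93, adjusted p = 0.176).

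Neutrophils, erythroid cells and B cells are known to carry Cd24a, and their markers moved with MYC to different extents. All 8 neutrophil genes tested rose with MYC, from a sum of 3.98 CPM in both controls to 865, 1436 and 708, and in the controls Ly6g and Retnlg were at 0. Of 8 erythroid genes 3 rose, and the sum was 93.2 and 116 CPM in the controls and 181, 990 and 472 with MYC. None of the 7 B cell genes passed, and their sum was 6.24 to 8.22 CPM in the controls and 7.86 to 8.18 with MYC. Cd24a, the neutrophil sum and the erythroid sum were each highest in MYC replicate 2. Cd24a and the erythroid sum had the same order over the 3 MYC libraries, and the neutrophil sum did not. In the YAP model the neutrophil sum was 2.23 to 4.83 CPM in controls, 17.1 to 195 at 2 weeks and 51.8 to 160 at 4 weeks, with 4 and 6 of 8 genes higher. The part of these cells in the Cd24a result was not tested.

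Tspan8, a tetraspanin of epithelial membranes, had 1 count in each MYC control (0.0884 and 0.0780 CPM) and 19, 98 and 68 counts with MYC (1.13, 6.87 and 3.95 CPM). All MYC libraries were above the controls, with replicate 2 again the highest. The pooled counts gave a ratio of 46.2, with an exact interval of 12.6 to 385 at 95% confidence that covers counting error only. The test across libraries did not pass (log2 fold change 5.44 ± 1.80 SE, adjusted p = 0.0612). No control library of either model was above the cutoff of the low-count filter. Tspan8 entered the test only through induced libraries, which limits what its result can show. The gene passed with scaling to total counts (adjusted p = 0.0475), with DESeq2 (0.00349), with only MYC-model libraries in the fit (0.0202) and without MYC replicate 1 (0.0377). In the YAP model it was at 0.870 and 0.318 CPM in the controls, 0 and 1.61 at 2 weeks, and 0.254, 4.19 and 2.61 at 4 weeks. Those groups overlapped (0.46 ± 1.51, adjusted p = 0.853 at 2 weeks, and 1.96 ± 1.38, adjusted p = 0.3 at 4 weeks).

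Cftr, the apical chloride channel through which cholangiocytes drive bicarbonate and fluid into bile, was at low counts throughout. It was at 0.386 and 0.318 CPM in the YAP controls (4 and 3 counts), 1.70 and 1.02 at 2 weeks, and 0.699, 8.77 and 6.45 at 4 weeks. All 5 induced libraries were above both controls, and 4-week replicate 1 was the lowest of the 5. The mean rose 15.1-fold at 4 weeks (log2 fold change 3.88 ± 1.07 SE, adjusted p = 0.017), and at 2 weeks it was 3.85-fold higher without passing (1.91 ± 1.12, adjusted p = 0.226). Cftr was above the cutoff of the low-count filter in 0 YAP controls, 2 libraries at 2 weeks, 3 at 4 weeks and 1 MYC control. It thus entered the test mainly through induced libraries where it was high, which limits what its result can show. The 4-week call was lost without control replicate 1 (4.03, adjusted p = 0.0993) and without control replicate 2 (3.75, adjusted p = 0.11). With MYC it was at 0.476, 0.210 and 0.290 CPM against 0.177 and 0.936 in the controls, which overlapped (-0.77 ± 1.02, adjusted p = 0.652).

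**Figure D3:**
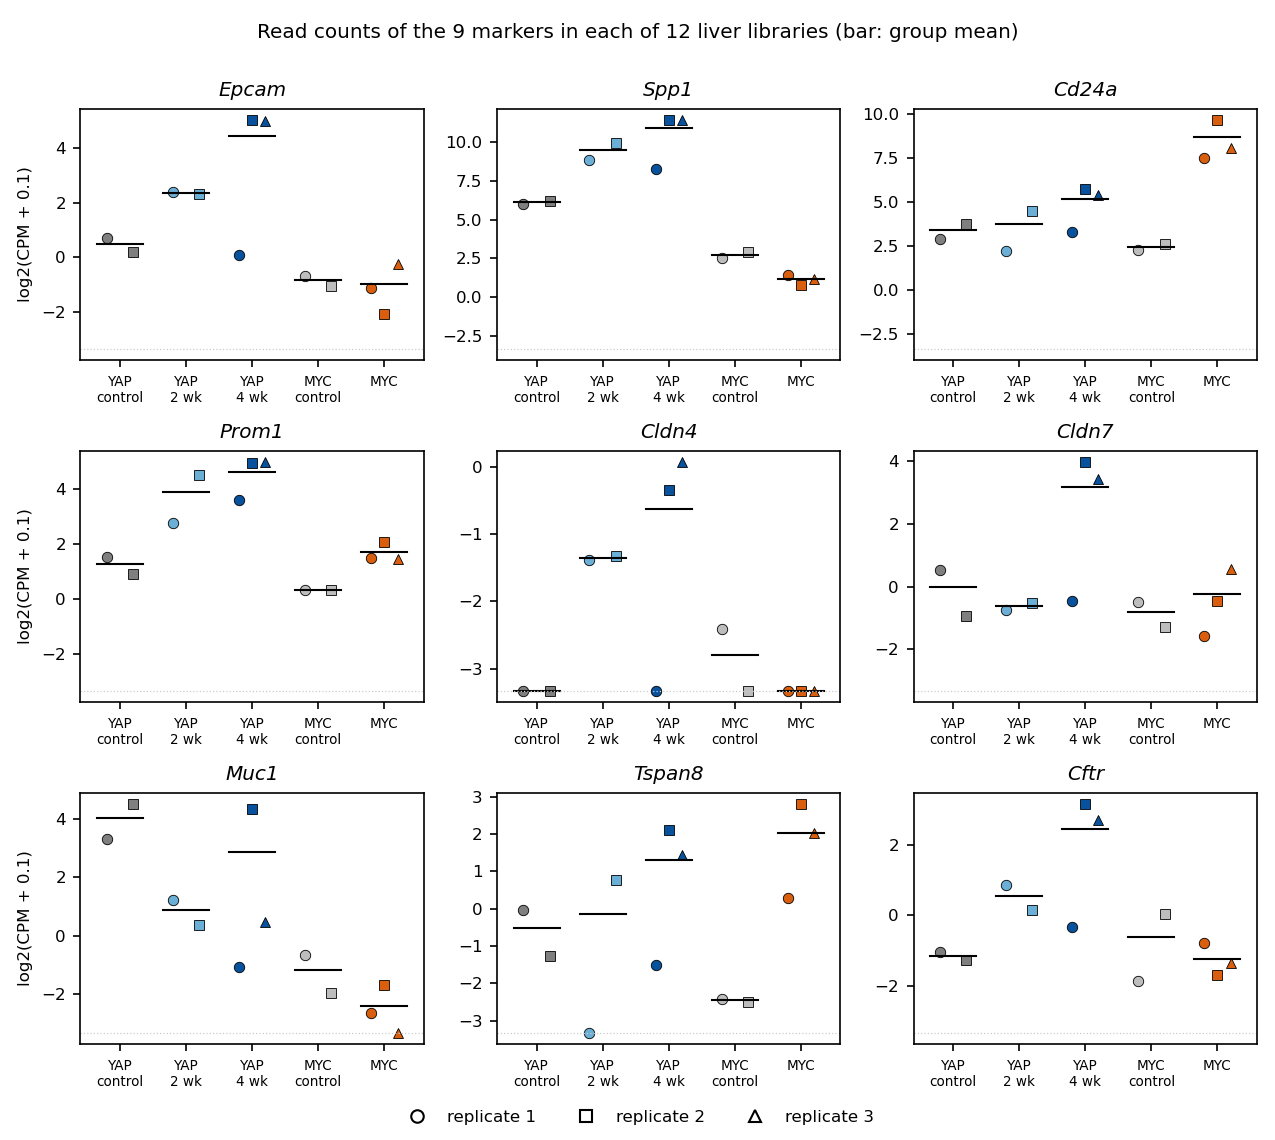
Level of each marker in each of the 12 libraries (y axis, log2 of CPM + 0.1, with a dotted line at 0 CPM), by group, with a bar at the group mean and a symbol for each replicate number. At 4 weeks of YAP, replicate 1 was the lowest of the 3 libraries in all 9 genes, and with MYC Cd24a stood at 183 to 791 CPM against 4.77 and 6.08 in the controls.

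At 4 weeks of YAP the 3 libraries were unequal in the same way for every member. Replicate 1 was the lowest in 9 of 9 genes. Of all tested genes, it was the lowest in 40.2% and the highest in 39.7%. The hepatocyte markers summed to 76736 CPM in replicate 1, against 41115 and 38812 in replicates 2 and 3. The 6 mesothelial genes, of which 1 rose at 4 weeks, summed to 3.68, 14.3 and 12.7 CPM in replicates 1, 2 and 3 and to 7.83 and 4.99 in the controls. The part of these cells and of the hepatocyte share in the members' values was not tested.

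Groups whose libraries did not overlap were counted beside the tests. At 2 weeks of YAP, 5 members were above the controls in every library (Epcam, Spp1, Prom1, Cldn4 and Cftr), where 36.6% of all tested genes were, and Muc1 was below, where 30% were. Cldn4 was above on only 4 and 5 counts against none in the controls, which is near the detection limit. At 4 weeks, 3 members were above (Spp1, Prom1 and Cftr), against 33.5% of tested genes, and none was below, against 26.4%. With MYC, 3 were above (Cd24a, Prom1 and Tspan8), against 26.8%, and Spp1 was below, against 26.2%. These counts at 4 weeks and with MYC lie near the share of all genes. Cldn4, Cftr and Tspan8 entered the test only or mainly through induced libraries where they were high. That limits what their places in these counts can show, and the 2-week count of 5 includes Cldn4 and Cftr.

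Between 2 and 4 weeks of YAP, 0 members passed with edgeR, where 0.0612% of tested genes did. At an unadjusted p under 0.05 with edgeR, 2 members were higher at 4 weeks (Cldn7 and Cftr). Of all 17964 tested genes, 1250 had such a p in either direction. DESeq2 called 1 member, Cldn7. Cldn7 had the largest difference among the members (log2 fold change 4.01 ± 1.2 SE, adjusted p = 0.551) and was the only one whose libraries did not overlap, where 10.8% of tested genes were higher in this way. Its 4-week replicate 1 (0.635 CPM) and 2-week replicate 2 (0.598 CPM) held 10 counts each, so that separation lies within counting error. Without 4-week replicate 1, Epcam, Spp1 and Cldn7 passed as higher.

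Whether MYC and 4 weeks of YAP changed a member differently was tested directly, as the first effect minus the second. It passed for 1 member, Spp1 (log2 difference -6.39 ± 1.13 SE, adjusted p = 0.0115), where 7.48% of tested genes passed, 4.33% as lower and 3.15% as higher. For Cd24a the difference was in the other direction and did not pass (4.49 ± 1.31, adjusted p = 0.0728), though it did with DESeq2 (0.00861). Cftr (-4.65 ± 1.47, adjusted p = 0.079) and Epcam (-4.12 ± 1.94, adjusted p = 0.227) did not pass, and both passed with DESeq2 (0.0155 and 0.0328) and without 4-week replicate 1 (0.00891 and 0.00398). Cftr passed too without a filter on low counts (0.0488). The remaining 5 members did not pass.

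Per kilobase of exon, Spp1 had the highest mean level of the members in YAP controls (42.1 ± 3.95 CPM per kb, SD, n = 2), at 2 weeks (443 ± 228, n = 2) and at 4 weeks (1166 ± 850, n = 3). In YAP controls Muc1 came next (6.94 ± 3.87 CPM per kb) and overlapped in spread with Cd24a (4.05 ± 1.65). In MYC livers Cd24a was highest (160 ± 128 CPM per kb, n = 3) and Spp1 was at 1.29 ± 0.306. In MYC controls the order was Spp1 (3.91 ± 0.756 CPM per kb, n = 2) and then Cd24a (2.1 ± 0.359). Cldn4 was the lowest member in each of the 5 groups.

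The other genes of the biliary epithelium were read from 7 lists. These lists were chosen with earlier results of these data known, so their counts are not independent support for a biliary change. Of all tested genes, 15.1% were higher and 12.7% lower at 2 weeks, 18.1% and 15.7% at 4 weeks, and 9.76% and 8.56% with MYC. With MYC the median log2 fold change over all tested genes was 0.02. Of 11 keratin and epithelial structure genes tested, 6 rose at 2 weeks and 7 at 4 weeks, with none lower, and the list's median log2 fold change was 1.42 at both times against 0.10 and 0.18 over all tested genes. Bicc1, an RNA-binding protein of renal and biliary tubules, rose from 10.3 ± 2.33 to 448 ± 29.5 CPM at 2 weeks and 455 ± 89.1 at 4 weeks. Pkhd1, the fibrocystin of primary cilia, rose from 19.3 ± 2.95 to 139 ± 29.2 and 216 ± 84.7 CPM, and Cys1 rose from 6.46 ± 0.431 to 128 ± 27.2 and 118 ± 34.7 CPM. The classical duct keratin Krt19 was at 7.62 CPM in YAP controls, 5.02 at 2 weeks and 13.2 at 4 weeks, and its groups overlapped. With MYC, 1 of the 11 rose (Bicc1, from 10.1 ± 2.62 to 94.3 ± 52.9 CPM) and 1 fell, the desmosome gene Dsp (226 ± 14.4 to 84.3 ± 13.3 CPM). Both of these counts with MYC lie near the shares over all tested genes.

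Of 10 biliary transcription factors, 4 rose at 2 weeks and 6 at 4 weeks, with none lower (median 1.32 and 2.33). Sox9, the duct and progenitor factor, rose from 30.3 ± 0.359 to 128 ± 55.8 CPM at 2 weeks. Sox4 rose from 1.71 ± 0.173 to 59.7 ± 48.6 and then 108 ± 62.0 CPM, and Hes1, a Notch target, from 7.38 ± 0.0845 to 33.0 ± 2.38 and 31.0 ± 3.96 CPM. With MYC the epithelial factor Elf3 rose (0.450 ± 0.136 to 3.60 ± 2.19 CPM), Hes1 fell (27.5 ± 2.96 to 14.8 ± 3.29 CPM), and 8 did not pass (median -1.05). The counts of higher and lower factors with MYC lie near the shares over all tested genes.

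Of 13 ion and fluid transport genes, 1 rose and 1 fell at 2 weeks, 3 rose at 4 weeks, and 2 rose and 1 fell with MYC (medians 0.35, 0.41 and 0.41). The counts of higher genes on this list lie near the shares over all tested genes. The bile salt and conjugate exporter Abcc3 rose from 110 ± 12 to 450 ± 137 CPM at 2 weeks and 298 ± 28.0 at 4 weeks. The glucose transporter Slc5a1 rose at 4 weeks (1.22 ± 1.42 to 18.9 ± 16.1 CPM), as did the potassium channel Kcnn4 (0.260 ± 0.232 to 1.89 ± 0.977 CPM), and the chloride channel Ano1 fell at 2 weeks (6.48 ± 0.142 to 1.09 ± 0.741 CPM). With MYC, Kcnn4 rose from 0.122 ± 0.0478 to 22.4 ± 11.5 CPM and the carbonic anhydrase Car2 from 21.7 ± 1.25 to 311 ± 198 CPM, while the bile acid importer Slc10a2 fell from 11.9 ± 2.17 to 0.426 ± 0.150 CPM. Kcnn4 and Car2 are also known in red blood cells, and with MYC 3 of 8 erythroid genes rose. The part of erythroid cells in the Kcnn4 and Car2 values was not tested.

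Of 17 other claudin and tight junction genes, 4 rose and 3 fell at 2 weeks, 7 rose and 2 fell at 4 weeks, and 1 rose and 3 fell with MYC (medians 0.37, 0.97 and -0.44). Here the 2-week counts lie near the shares over all tested genes. Cgn, cingulin, rose at both times, from 45.1 ± 3.03 to 156 ± 16.8 and 162 ± 37.0 CPM, and the scaffold gene Tjp1 rose from 146 ± 0.0666 to 334 ± 20.8 CPM at 2 weeks. F11r, a junctional adhesion molecule, rose at 4 weeks (53.0 ± 2.50 to 130 ± 16.5 CPM). Cldn14 fell at 2 weeks (15.4 ± 5.34 to 2.52 ± 1.16 CPM). With MYC, Cldn2, a pore-forming claudin, fell from 82.6 ± 17.5 to 15.3 ± 4.68 CPM, and Marveld2 rose from 11.3 ± 1.06 to 24.2 ± 3.0 CPM.

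Of 12 mucins and secreted epithelial products tested, 2 rose and 4 fell at 2 weeks, and 5 rose and 1 fell at 4 weeks and with MYC (medians -0.56, 1.22 and 4.63). For higher genes, the 2-week count lies near the share over all tested genes. Psca, an anchored surface protein of glandular epithelia, rose from 0.0483 ± 0.0683 CPM to 162 ± 44.7 at 2 weeks and 159 ± 204 at 4 weeks. Muc6 rose from 3.42 ± 0.869 to 11.5 ± 1.83 and 18.4 ± 0.979 CPM. Tff3, a trefoil peptide of mucous epithelia, fell from 12.6 ± 1.12 to 0.267 ± 0.124 and 0.637 ± 0.613 CPM with YAP and rose from 0.621 ± 0.00358 to 85.8 ± 44.7 CPM with MYC. The iron-binding defence proteins Lcn2 (6.5 ± 1.81 to 144 ± 49.5 CPM) and Ltf (0.216 ± 0.195 to 85.8 ± 25.7 CPM) also rose with MYC. Both are neutrophil granule genes as well, and the neutrophil markers rose in the same libraries. The part of neutrophils in the Lcn2 and Ltf values was not tested.

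Among 10 receptors for osteopontin tested, 4 rose and none fell in each of the 3 comparisons (medians 0.87, 0.54 and -0.17). Cd44 rose from 14.7 ± 2.53 to 75.9 ± 0.152 and 63.8 ± 20.1 CPM with YAP, and from 9.09 ± 0.484 to 38.0 ± 8.75 CPM with MYC. Itga4, an integrin of white blood cells, rose from 9.10 ± 3.26 to 45.7 ± 4.29 and 27.3 ± 9.37 CPM with YAP and from 8.68 ± 1.28 to 76.4 ± 18.9 CPM with MYC. Itgb8 rose at 4 weeks of YAP (2.76 ± 0.604 to 20.1 ± 11 CPM), and Itgb3 rose with MYC (5.37 ± 1.34 to 32.9 ± 8.54 CPM). In each comparison 6 of the 10 receptor genes did not pass, and with MYC the list's median lay below the 0.02 of all tested genes. Spp1 itself rose in the YAP model and did not pass in the MYC model.

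Of 14 tetraspanins and prominins related to Tspan8 and Prom1, 5 rose and 2 fell at each YAP time, and 2 rose and 2 fell with MYC (medians 0.34, 0.64 and 0.61). Both counts with MYC, and those of lower genes at each YAP time, lie near the shares over all tested genes. The endosomal tetraspanin Cd63 rose from 4.72 ± 2.17 to 49.4 ± 23.2 and 92.6 ± 39.9 CPM, and Tspan3 rose at 4 weeks from 4.79 ± 1.03 to 21.5 ± 3.20 CPM. Cd37 and Cd53, tetraspanins of leukocytes, rose at 2 weeks (1.72 ± 0.0295 to 12.4 ± 0.663 CPM, and 4.45 ± 1.49 to 27.7 ± 3.05 CPM). With MYC, Cd81 fell from 211 ± 24.5 to 81.9 ± 26.1 CPM and Tspan12 from 100 ± 18.7 to 45.3 ± 16.4 CPM.

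**Figure D4:**
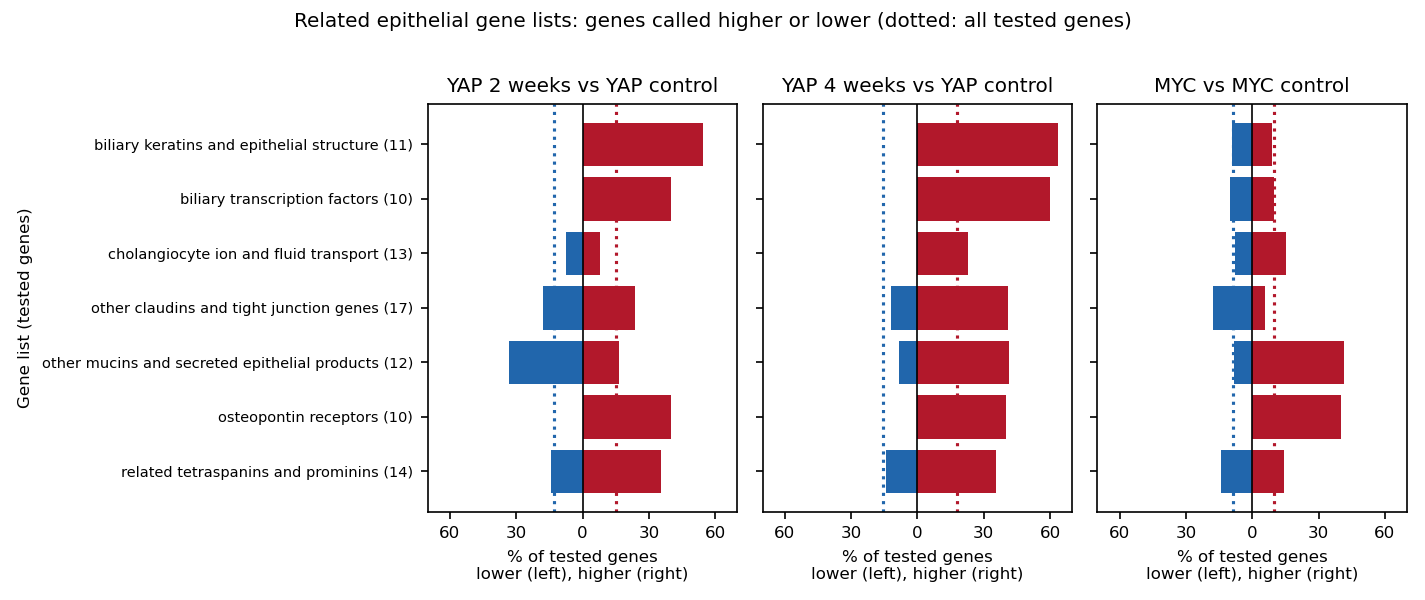
Share of tested genes (x axis, %) called higher (red, to the right) or lower (blue, to the left) in each of 7 related gene lists, for the 3 comparisons with controls. Dotted lines give the share of all 17964 tested genes, and at 4 weeks of YAP 7 of 11 structure genes and 6 of 10 transcription factors were higher and none lower. The lists were chosen with earlier results of these data known.

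Likeness of pattern was measured as Pearson's r of log2 CPM over the 12 libraries, which share their groups and scaling, against 12850 or 12851 other genes with a mean of at least 1 CPM. Spp1 was most like Sox9 (r = 0.99), H2-Q6 (0.99) and Itgb8 (0.98). Prom1 was most like Myof (0.98) and Sipa1l3 (0.98), and Epcam like Pbxip1 (0.96) and Wnk2 (0.96). Cd24a was most like Arfgap3 (0.98), a septin symbol that spreadsheet software had turned into a date (0.97) and Kcnn4 (0.97). Cldn4 was most like Cldn6 (0.96), Nfkb1 (0.94) and Pkd1 (0.94), and Cldn7 like Trio (0.95), Mkl2 (0.92) and Ift81 (0.91). As Cldn4 had no counts in most libraries, its values of r rest on few libraries with low counts. Cftr was most like Pamr1 (0.96), Mamld1 (0.95) and Afap1 (0.95), Muc1 like Tm7sf3 (0.94), BC048546 (0.92) and Chrm3 (0.91), and Tspan8 like Pdk3 (0.92), Zfp329 (0.91) and Fubp1 (0.91). Sox9, Itgb8 and Kcnn4 were themselves on the lists above.

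Among the members, the same measure was highest between Epcam and Cldn4 (0.93), Epcam and Cftr (0.91), and Epcam and Spp1 (0.90). The value with Cldn4 is limited, because Cldn4 held 39 counts in total and none in most libraries. Cd24a and Tspan8 had r = 0.86, and Cd24a was at -0.38 with Spp1 and -0.16 with Epcam. Muc1 had its highest r with Spp1 (0.62). These correlations are descriptions over libraries of 5 groups.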

How the data were processed

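Each library had 1 deposited table of raw counts by gene symbol, with 48576 genes. Per the submitters' processing notes, the authors used Trim Galore 0.4.1, HISAT2 2.1.0, featureCounts 1.6.3 and DESeq2 1.20.0 with GRCm38 (mm10), and the labels' protocols name TRIzol and RNeasy extraction with DNase and a Nugen Ovation Mouse kit. The deposited counts are whole numbers that were used as given. Annotation release, strand setting and handling of multiply mapped reads are not given in the sources used here. Replicates differed by more than counting error (chi-square per degree of freedom 12.3 to 121), so none was merged.

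Counts were tested with edgeR 4.0.16 (R 4.3.3): filterByExpr by group, TMM, robust quasi-likelihood fit with 1 mean per group over all 12 libraries, two-sided, Benjamini-Hochberg over 17964 genes, called at an adjusted p under 0.05. The fit left 7 residual degrees of freedom, with a common biological coefficient of variation of 31.5%. All 9 members passed the filter, though no YAP control library was above its cutoff for Cldn4, Tspan8 or Cftr. The SE is the absolute log2 fold change over the root of F. The procedure was tested on simulated data. Floors of 3 counts per library cover counting error only.

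The members, 7 related lists and 13 marker lists were chosen with earlier results of these data known. Named are all members, up to 3 called genes of smallest p per related list in each comparison with controls, and the 3 genes most like each member over the libraries. Those given outside this rule (Krt7, Krt19, Cd68, Trem2, Gpnmb, Ly6g, Retnlg, Alb, Apoa1, Yap1, Myc, C6, Timd4, Lrat, Col1a1, Col3a1 and Fabp2) are label or marker checks, some chosen after their values were seen. Alternatives were a replicate block, DESeq2 size factors, total-count scaling, no filter, DESeq2 1.42.0, fits of 1 model's libraries, and leaving out each library. Promoters are RefSeq GRCm38.p6, with no entry used for Cd24a. The planned protein alignment of Cldn4 and Cldn7 was not run, and a few results that these rules name, with 1 planned motif, are not reported here.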

Additional observations from a re-analysis of the deposited data

Results flagged for a closer look

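Spp1 differed between the models in the tested difference of effects, the MYC effect minus the 4-week YAP effect (log2 difference -6.39 ± 1.13 SE, adjusted p = 0.0115, edgeR). The 4-week YAP effect was 4.79 ± 0.88 and the MYC effect -1.59 ± 0.77 on the log2 scale, with 3 of 3 libraries above both controls in the first and 3 of 3 below both controls in the second. The control levels of the models were 69.3 ± 6.51 and 6.45 ± 1.25 CPM (SD, n = 2 each). The call was lost without YAP control replicate 1 (-6.30, adjusted p = 0.0668), YAP control replicate 2 (-6.49, 0.0628) or MYC control replicate 2 (-6.18, 0.0523), and the difference lay between -6.89 and -6.05 without each of the 10 libraries. The models differ in age, driver and sex pattern, which cannot be told apart from the induced gene.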

How the results depend on the processing

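Across settings that left out no library, Spp1 and Prom1 kept their 4-week calls, and no called member turned direction. At 2 weeks, 1 member passed without a filter, and Spp1 was lost (adjusted p = 0.0608). Between 4 and 2 weeks, DESeq2 called 1 member, and the number of genes called was 3 with total-count scaling, 42 without a filter, 77 with DESeq2 and 0 with only YAP libraries, against 11. With MYC, 2 members passed with total-count scaling or DESeq2 and 3 with only MYC libraries. For the difference between models, 2 passed without a filter and 4 with DESeq2, which called 2350 genes. Same-numbered replicates did not deviate together (r of deviations -0.03 to 0.06 in the YAP model and 0.02 to 0.08 in the MYC model). A replicate block left 2 members called at 4 weeks (Epcam at an adjusted p of 0.114 and Cftr at 0.0523 were lost) and gave 2 for the difference between models (Cd24a gained, 0.0198). With the block, Tspan8 at 2 weeks turned to -0.66 and Cldn4 between 4 and 2 weeks to -0.065. With total-count scaling, Epcam with MYC turned to 0.31.

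Leaving out 1 library at a time gave 0 to 2 members and 2445 to 3671 genes at 2 weeks, 2 to 6 members and 3324 to 6231 genes at 4 weeks, 0 to 3 members and 1 to 501 genes between them, 0 to 2 members and 792 to 4192 genes with MYC, and 0 to 3 members and 338 to 1868 genes for the difference between models. Fold changes of uncalled members that turned ranged on the log2 scale from -1.17 to 1.09 (Cd24a), -1.29 to 0.37 (Cldn7) and -6.12 to 1.43 (Tspan8) at 2 weeks, -1.03 to 2.63 (Muc1) between 4 and 2 weeks, -0.82 to 0.28 (Epcam), -0.11 to 1.26 (Cldn7) and -1.49 to 0.86 (Cftr) with MYC, and -2.01 to 2.37 (Muc1) for the difference. Cldn4 with MYC had no value without MYC control replicate 1, which held its only count. Groups of 2 and the low counts of Cldn4, Tspan8 and Cftr limit precision, and the cause of other changes was not tested.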

Other observations

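Markers of other cells differed between groups beside the members. Kupffer cell genes, of which 7 were tested, summed to 708 and 744 CPM in YAP controls, 1445 and 855 at 2 weeks, and 700.5, 187 and 93.0 at 4 weeks; 2 rose and 1 fell at 2 weeks, 1 fell at 4 weeks, and 1 rose and 1 fell with MYC. The sum held C6, a complement gene that hepatocytes also make, at a mean of 516 CPM in YAP controls, 73.1 at 2 weeks and 15.3 at 4 weeks. Timd4, a receptor of resident Kupffer cells, was at 7.65 CPM in YAP controls, 46.9 at 2 weeks and 11.5 at 4 weeks. Of 8 stellate genes, 2 rose at 2 weeks, 1 rose and 3 fell at 4 weeks, and none passed with MYC. Lrat, the retinol esterase of stellate cells, was at 37.4 CPM in YAP controls, 10.6 at 2 weeks and 12 at 4 weeks, while the collagen genes Col1a1 (19.5, 103 and 140 CPM) and Col3a1 (55.7, 135 and 186 CPM) went the other way.

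The 8 skeletal muscle genes summed to 433 and 470 CPM in the 2-week libraries, to at most 0.580 in YAP controls and to at most 16.9 at 4 weeks, and 7 of them rose at 2 weeks and 2 at 4 weeks; 1 fell with MYC. Of 7 sinusoidal endothelial genes, 1 rose at 2 weeks and 1 fell with MYC. Of 5 gallbladder and gut genes tested, 1 rose and 2 fell at each YAP time and 2 rose with MYC. The 1 pancreas acinar gene tested fell in all 3 comparisons, with sums of 17.5 to 25.4 CPM in YAP controls and 28.2 to 38.0 in MYC controls. Of 8 erythroid genes 1 fell at each YAP time, 1 of 7 B cell genes rose at 2 weeks, and no mesothelial gene passed at 2 weeks or with MYC. Of 9 hepatocyte genes, 3 fell at 2 weeks, 6 at 4 weeks and 5 with MYC, and none rose. The list of 13 cholangiocyte genes, which holds the 9 members, had 4, 6 and 1 genes higher in these comparisons and none lower.

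Cldn6, the gene most like Cldn4 over the libraries, had no counts in either control group, 1.34 CPM at 2 weeks and 8.96 at 4 weeks (range 0.0635 to 17.4). Cldn3, a claudin of hepatocytes and ducts chosen here after its values were seen, was at 105 CPM in YAP controls, 108 at 2 weeks and 118 at 4 weeks, and at 105 in MYC controls against 19.1 with MYC (range 5.51 to 45.7).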
